A study of Mus musculus with 14 samples.

Results

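In cultured microglia, the resident macrophages of the brain, 10 genes of transforming growth factor beta (TGF-beta) signaling were followed. They were the ligands Tgfb1 and Tgfb2, the latency genes Nrros and Ltbp1, the receptors Tgfbr1 and Tgfbr2, and the signal carriers and inhibitor Smad2, Smad3, Smad4 and Smad7. These 10 genes were found by symbol among the 49315 genes of the count table, through the GRCm38 annotation. All 10 were counted in every library and passed the filter on low counts.

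The study compared microglia of TIMP2 KO mice with those of WT mice, to ask what loss of this tissue inhibitor of metalloproteinases does to microglial state. Each genotype had 7 libraries, and each library came from a pool of 5 pups of C57BL/6 background at postnatal day 6 to 7, with male and female pups pooled and sexes matched. The KO was constitutive and in all cells, so that microglia and every other cell of the pups carried the KO allele. Microglia were selected from forebrain with CD11b microbeads and cultured in medium with fetal bovine serum before RNA was taken. The labels give no treatment for either group. The libraries held between 38875344 and 48070236 counted reads, with 38875344 to 45623039 in KO and 41538291 to 48070236 in WT.

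TGF-beta is made as a latent complex, in which the ligand is held by its own propeptide. That complex is tethered either to matrix by proteins such as LTBP1 or to the surface of microglia by NRROS, and integrins release the active ligand. The ligand binds TGFBR2, which activates TGFBR1, and the receptors phosphorylate SMAD2 and SMAD3, which enter the nucleus with SMAD4. SMAD7 is induced by the pathway and inhibits it. In the brain, this signal is known for keeping up the homeostatic gene program of microglia.

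The levels below are counts scaled to library size (CPM, counts per 1e6 reads), scaled by trimmed mean of M values (TMM). Changes are KO over WT on the log2 scale from edgeR's quasi-likelihood test. Adjusted p-values are Benjamini-Hochberg values over all 15700 genes tested. A gene was called where its adjusted p was under 0.05.

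Timp2 itself separated the genotypes. It lay at 120, 121 and 129 CPM (lowest, median and highest) in KO and at 398, 476 and 495 CPM in WT. The KO level was 26.4% of the WT level, with a log2 fold change of -1.92 (SE 0.0464, edgeR adjusted p = 1.53e-12). Every KO library thus carried the label's reduction, and reads on the gene were still counted there.

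Microglial identity was checked on 10 marker genes. Their summed level was 9541 to 11730 CPM in KO and 9162 to 11180 CPM in WT. Csf1r, the receptor for colony stimulating factor 1, was counted at a mean of 2677 CPM. Tmem119 and P2ry12, which mark homeostatic microglia, were counted at means of 4.54 and 41.6 CPM. Markers of other cells were present at lower summed levels. Astrocyte markers summed to 30.6 to 147 CPM in KO and 35.2 to 276 CPM in WT. These levels vary between libraries, and they are set beside the results that they move with. In bulk RNA, fewer cells of a type and less RNA per cell cannot be told apart.

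The start regions of the 2 ligands and of Ltbp1 are printed because they set an abundant ligand that varied little beside the pair of genes that varied most between libraries. RefSeq promoter windows on GRCm38.p6 were found for 7 of the 10 genes. Each line holds the 250 bases before a transcription start, 5′ to 3′ on the strand of the gene. Capitals mark matches to 6 short motifs that were searched on both strands: the TATA box TATAAA, the cAMP response element TGACGTCA, the E-box CACGTG, the GC box GGGCGG, the AP-1 site TGANTCA and the SMAD box CAGAC.
Tgfb1, chr7:25686752-25687001, plus strand: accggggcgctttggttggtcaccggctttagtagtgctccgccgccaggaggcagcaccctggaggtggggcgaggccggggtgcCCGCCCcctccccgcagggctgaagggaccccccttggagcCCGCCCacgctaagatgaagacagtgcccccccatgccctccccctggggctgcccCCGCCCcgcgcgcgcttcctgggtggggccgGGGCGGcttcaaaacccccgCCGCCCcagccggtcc
Tgfb2, chr1:186705990-186706239, minus strand: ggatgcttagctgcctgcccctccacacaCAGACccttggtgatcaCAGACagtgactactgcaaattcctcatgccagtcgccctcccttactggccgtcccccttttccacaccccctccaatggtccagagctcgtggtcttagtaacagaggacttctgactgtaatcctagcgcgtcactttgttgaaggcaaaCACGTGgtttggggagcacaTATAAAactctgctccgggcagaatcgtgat
Ltbp1, upstream start, chr17:75005279-75005528, plus strand: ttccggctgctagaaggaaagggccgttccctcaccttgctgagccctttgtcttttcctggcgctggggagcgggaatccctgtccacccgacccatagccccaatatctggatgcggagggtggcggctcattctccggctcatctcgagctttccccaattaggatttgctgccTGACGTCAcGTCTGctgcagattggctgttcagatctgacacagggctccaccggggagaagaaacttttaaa
Ltbp1, downstream start, chr17:75178531-75178780, plus strand: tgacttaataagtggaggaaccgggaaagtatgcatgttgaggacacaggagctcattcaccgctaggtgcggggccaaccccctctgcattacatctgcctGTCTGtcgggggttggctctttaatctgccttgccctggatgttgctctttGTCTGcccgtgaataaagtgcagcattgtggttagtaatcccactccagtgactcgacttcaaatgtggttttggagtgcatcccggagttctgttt

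The windows differed in composition. Tgfb1 had 75.2% G and C and 21 CpG dinucleotides, against medians of 52.4% and 6 over 32841 windows of the RefSeq table. It held 5 GC boxes, a motif present in 32.7% of all windows, and no match to the other 5 motifs. Tgfb2 had 53.6% G and C and 8 CpG. It carried a TATA box at bases -31 to -26 from the start (12.4% of all windows), an E-box at -51 to -46 (6.02%) and 2 SMAD boxes. The upstream Ltbp1 window had 56.8% G and C, with a cAMP response element at -73 to -66 (1.55% of all windows) and a SMAD box on the other strand at -64 to -60. The downstream Ltbp1 window held 2 SMAD boxes, a motif found in 42.2% of all windows. AP-1 sites, found in 6.75% of all windows, were in none of the windows of these 7 genes. No motif match overlapped another in the printed windows. A match in these letters describes the window and was not tested for binding, and the gene counts do not separate the 2 Ltbp1 starts.

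Tgfb1 (chromosome 7, 25687002 to 25705077, plus strand) was the main ligand. In KO its lowest, median and highest levels were 352, 369 and 405 CPM, and in WT they were 351, 357 and 381 CPM. The genotypes overlapped, and 2 KO libraries lay above the highest WT library. Means were 369 ± 19.7 CPM for KO and 360 ± 10.6 CPM for WT (SD, n = 7 each). On the log2 scale the change was 0.04 (SE 0.0336, edgeR adjusted p = 0.943), and the 95% interval of the change ran from -2.32% to 7.89%.

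Tgfb2 (chromosome 1, 186622792 to 186705989, minus strand), a ligand made mostly by other cells of the brain, was near the bottom of the range. It was counted at 0.716, 1.82 and 3.23 CPM in KO (lowest, median and highest), from 29 to 128 reads, and at 1.08, 2.20 and 4.60 CPM in WT, from 49 to 192 reads. The lowest library of each genotype was the one numbered 5. The genotypes overlapped, with 2 KO libraries below the lowest WT library. The log2 fold change was -0.33 (SE 0.348, edgeR adjusted p = 0.943), with a 95% interval from -52.5% to 33.1%. An antisense gene, Gm29491, shares 124 exonic bases with Tgfb2 (2.14% of its exons) and had a mean of 0.43 reads.

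Per length, the 3 TGF-beta ligands can be set side by side. Tgfb1 stood at 72.3 CPM per kb of annotated exon over the 14 libraries, Tgfb3 at 2.34 and Tgfb2 at 0.374. Tgfb1 made up 95.3% to 97.7% of the summed per-length level of the 3 in every library, and Tgfb2 0.17% to 1.07%. The mean Tgfb1 share was 96.5% in KO and 96.3% in WT.

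Nrros (chromosome 16, 32142785 to 32165594, minus strand) encodes the protein that holds latent TGF-beta 1 on the microglial surface. It lay at 251, 274 and 312 CPM in KO and at 253, 269 and 309 CPM in WT (lowest, median and highest). The highest library of each genotype was again the one numbered 5, and the genotypes overlapped over almost the whole range. KO exceeded WT by 0.05 on the log2 scale (SE 0.0522, edgeR adjusted p = 0.943), with a 95% interval from -4.26% to 11.7%.

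Ltbp1 (chromosome 17, 75005568 to 75392512, plus strand), which anchors latent TGF-beta to matrix, varied more between libraries than any other of the 10. It lay at 0.247, 1.11 and 3.33 CPM in KO, from 10 to 132 reads, and at 0.395, 2.45 and 6.44 CPM in WT, from 18 to 269 reads. The highest library was 26.1-fold above the lowest. In KO, replicates 1, 2 and 7 lay at 2.61 to 3.33 CPM and the other 4 at 1.11 CPM or less, within the range of the WT libraries except for replicate 5. KO over WT, the change was -0.85 on the log2 scale (SE 0.571, edgeR adjusted p = 0.943), and the interval ran from -76.2% to 28.8%. A difference of up to that size in Ltbp1 was thus not resolved by these libraries.

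Tgfbr1 (chromosome 4, 47353222 to 47414931, plus strand), the signaling kinase of the receptor pair, lay at 174, 235 and 249.6 CPM in KO and at 168, 235 and 243 CPM in WT. The lowest libraries, at 168 to 204 CPM, were KO replicates 3 and 5 and WT replicates 1, 2 and 5, and all others lay at 223.5 CPM or above. The log2 fold change was 0.02 (SE 0.0972, edgeR adjusted p = 0.986), with a 95% interval from -12.3% to 17.0%.

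Tgfbr2 (chromosome 9, 116084293 to 116175360, minus strand), which binds the ligand, was the most abundant of the 10. Its lowest, median and highest levels were 674, 760.0 and 876 CPM in KO and 662, 736 and 826 CPM in WT. Replicate 1 was the lowest library in both genotypes, and 2 KO libraries exceeded the highest WT library. The log2 fold change was 0.05 (SE 0.0629, edgeR adjusted p = 0.945), with a 95% interval from -5.70% to 13.6%.

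The receptor-regulated SMADs differed in their spread. Smad2 (chromosome 18, 76241580 to 76310963, plus strand) lay at 50.2, 53.5 and 59.2 CPM in KO and at 51.0, 53.3 and 56.2 CPM in WT. Its log2 fold change was 0.01 (SE 0.0355, edgeR adjusted p = 0.979). Smad3 (chromosome 9, 63646767 to 63757994, minus strand) lay at 53.3, 64.6 and 83.5 CPM in KO and at 58.0, 64.9 and 70.6 CPM in WT. The KO libraries of Smad3 lay on both sides of the WT range, with 2 above it and 1 below it, and their coefficient of variation was 15.2% against 6.20% in WT. Its log2 fold change was 0.04 (SE 0.0810, edgeR adjusted p = 0.970).

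Smad4 (chromosome 18, 73639009 to 73703780, minus strand), the partner of both, lay at 63.9, 65.4 and 70.6 CPM in KO and at 61.4, 66.7 and 69.5 CPM in WT. Its log2 fold change was 0.0012 (SE 0.0332, edgeR adjusted p = 0.997), and the 95% interval ran from -4.72% to 5.13%. Its sign turned under other scalings. Smad7 (chromosome 18, 75367529 to 75395935, plus strand), the feedback inhibitor, lay at 37.0, 59.9 and 69.1 CPM in KO and at 38.7, 49.9 and 63.1 CPM in WT. The libraries numbered 5 were the lowest and those numbered 7 the highest in both genotypes. The log2 fold change was 0.10 (SE 0.131, edgeR adjusted p = 0.945), with an interval from -11.5% to 30.3%.

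**Figure D1:**
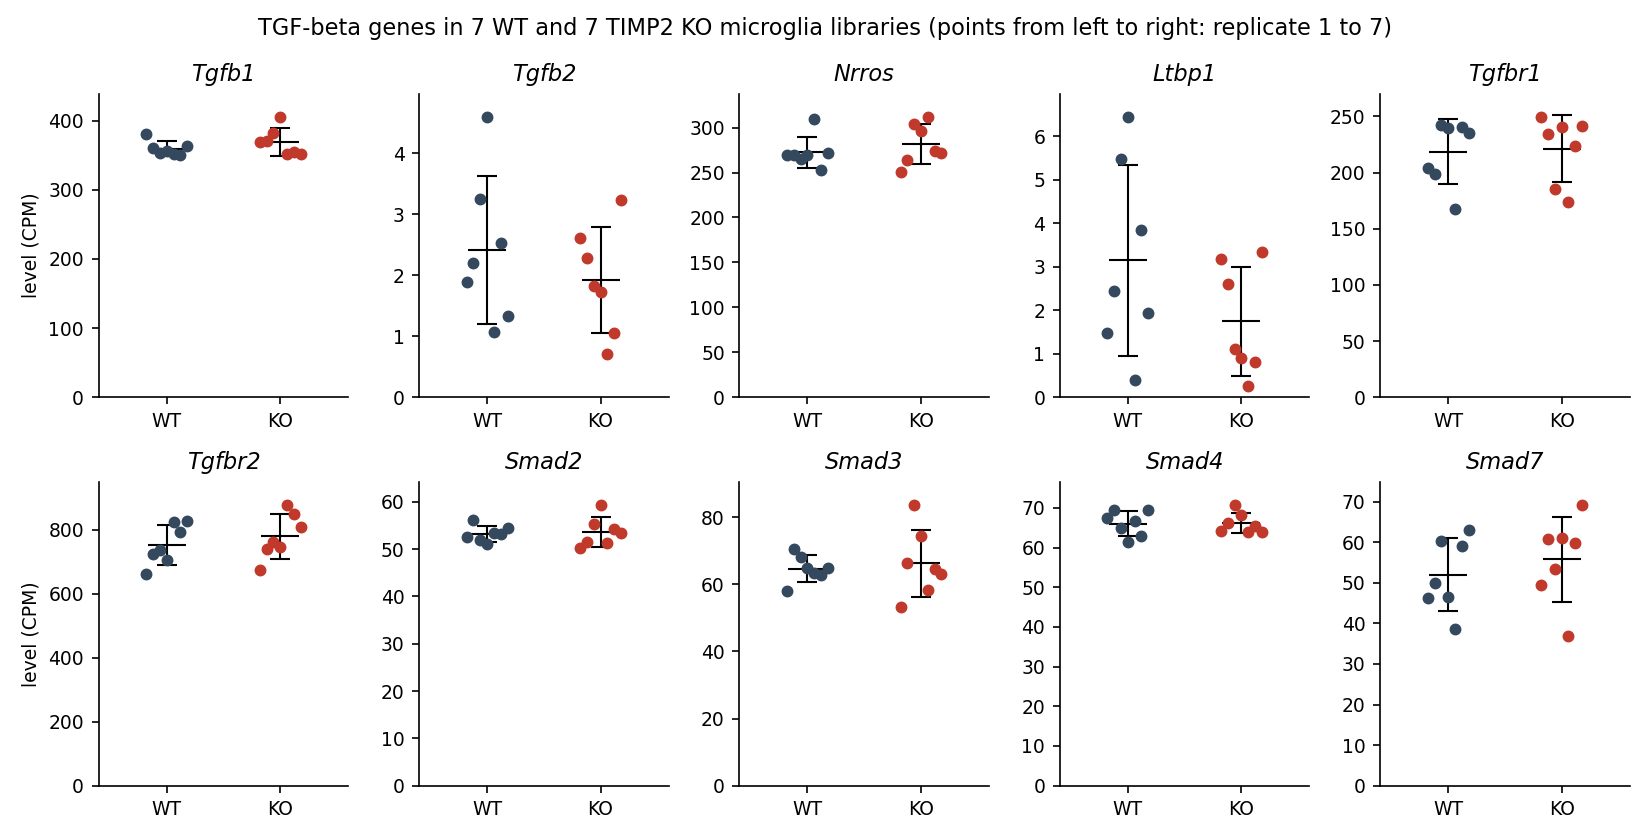
Level of each of the 10 genes in CPM (vertical axes from 0, each on its own scale) in 7 WT (dark) and 7 KO (red) libraries, with points from left to right in the order of replicate numbers and bars for mean ± SD. The genotypes overlap for every gene; Ltbp1 spreads from 0.247 to 6.44 CPM, and Tgfb1 from 351 to 405 CPM.

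Compared per length, the levels fell into an order whose means were ranked alike in both genotypes, except for Smad7 and Smad3. Tgfbr2 led with 93.5 ± 7.99 CPM per kb (SD, n = 14), followed by Tgfb1 with 72.3 ± 3.17 and Nrros with 66.4 ± 4.78. Tgfb1 and Nrros overlapped in range, and Tgfb1 was the higher in 12 of 14 libraries. Tgfbr1 stood at 33.7 ± 4.31 CPM per kb and Smad4 at 17.8 ± 0.732, both apart from their neighbours in all 14 libraries. Smad7 with 11.9 ± 2.12 and Smad3 with 11.8 ± 1.34 CPM per kb did not differ beyond their spread, and Smad7 was the higher in 8 of 14 libraries. Smad2 had 6.08 ± 0.273 CPM per kb. A 16.3-fold step then separated Smad2 from Tgfb2, at 0.374 ± 0.180 CPM per kb, and Ltbp1, at 0.229 ± 0.175 CPM per kb. The ranges of these last 2 genes overlapped, although Tgfb2 was above Ltbp1 in each of the 14 libraries.

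**Figure D2:**
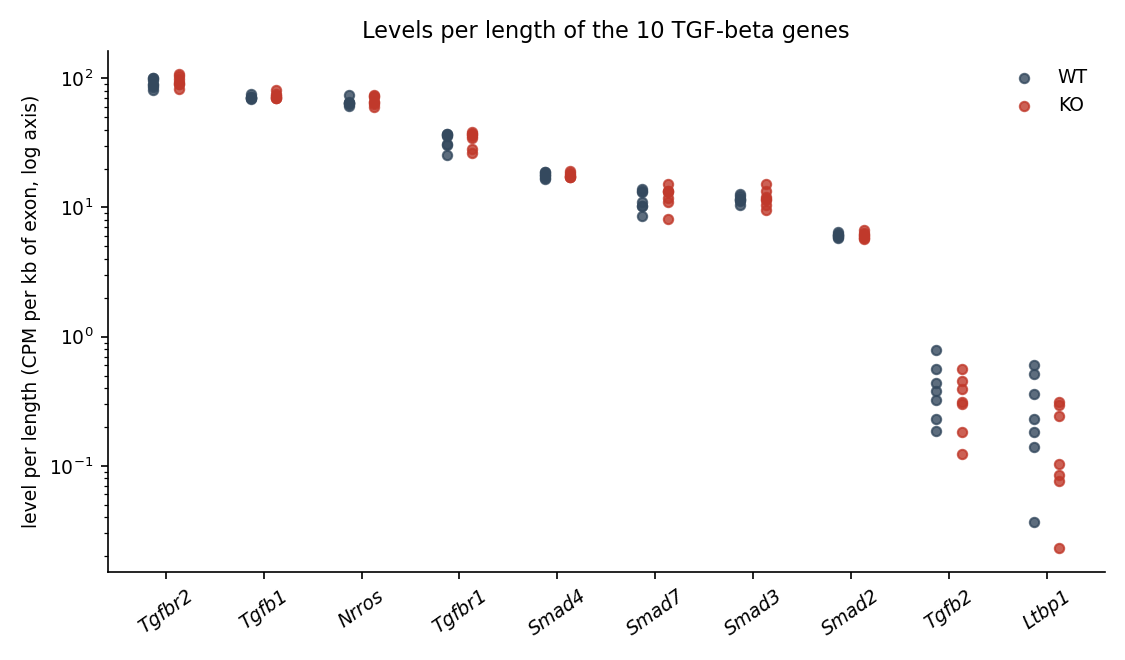
Level per length of the 10 genes (CPM per kb of annotated exon, log axis) in each WT (dark) and KO (red) library, ordered by the mean over 14 libraries. The step from Smad2 to Tgfb2 is 16.3-fold in the means, and no library of Tgfb2 or Ltbp1 reaches 1 CPM per kb.

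Between genotypes, 0 of the 10 genes were called by edgeR, 0 had an unadjusted p under 0.05, and DESeq2 gave 0 and 0. Over all genes tested, edgeR called 3 of 15700 (0.0191%), and 529 had an unadjusted p under 0.05. No gene of the 10 had KO and WT libraries that did not overlap, and 13 of all genes tested (0.0828%) did. The median log2 fold change of the 10 was 0.03, beside 0.0016 over all genes. Of the 10 changes 8 were above 0, beside 7983 of 15700 over all genes tested. With DESeq2's size factors 7 were above 0, where Smad4 turned, and with upper-quartile factors 6 were, where Smad2 turned too. The log2 fold changes of the 8 genes other than Tgfb2 and Ltbp1 lay between 0.0012 and 0.10.

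**Figure D3:**
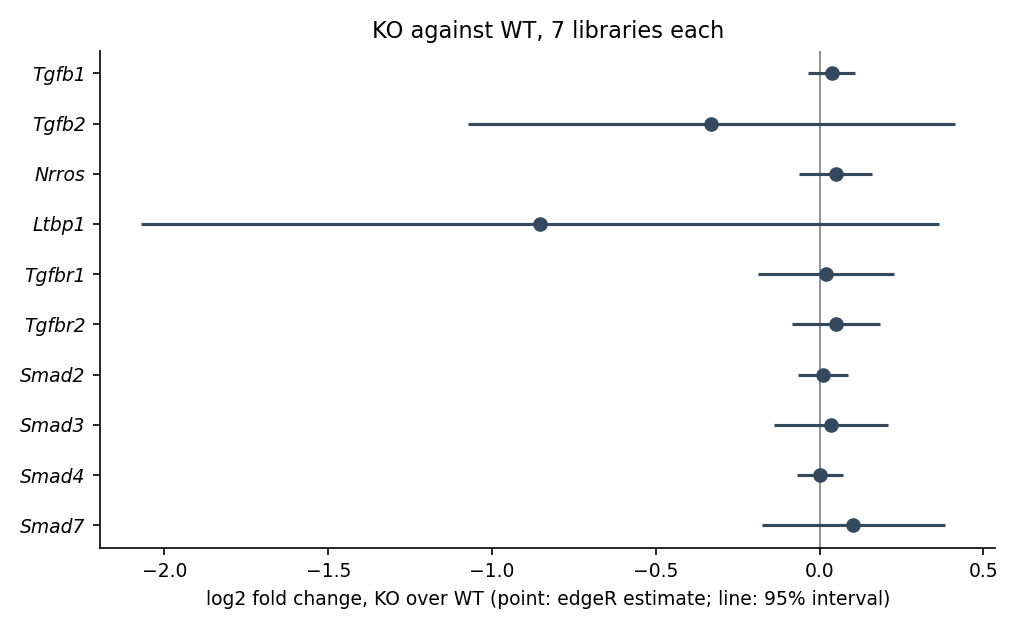
Log2 fold change of the 10 genes, KO over WT (horizontal axis; point for the edgeR estimate, line for its 95% interval, 7 libraries per genotype). All intervals cross 0; those of Ltbp1 (-2.07 to 0.36) and Tgfb2 (-1.07 to 0.41) are the widest and that of Smad4 runs from -0.07 to 0.07.

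The libraries differed in how much RNA of other cell types they held, and part of the spread of these genes moved with it. Astrocyte markers had medians of 51.0 CPM in KO and 94.3 CPM in WT, led by Gfap with 22.3% of the summed mean, and all 10 markers were above 1 CPM. The lowest library was replicate 5 in each genotype, and the highest were KO replicate 7 and WT replicate 4. The KO mean of the log2 summed level was lower by 0.60, with overlapping groups (log2 difference -0.60, two-sided exact permutation test over 3432 splits, p = 0.253).

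With genotype held in the edgeR fit, 4 of the 10 genes were called with the log2 summed level of the astrocyte markers as the second term. Over all genes except those markers, 2784 of 15690 (17.7%) were called, and 1644 without WT replicate 5. Ltbp1 rose by 1.20 on the log2 scale per SD of the marker level (SE 0.107, edgeR adjusted p = 1.36e-06). Tgfb2 rose by 0.65 (SE 0.0865, edgeR adjusted p = 7.15e-05) and Tgfbr1 by 0.15 (SE 0.0371, edgeR adjusted p = 0.00968). Nrros fell by 0.08 (slope -0.08, SE 0.0206, edgeR adjusted p = 0.0190). The slopes of the other 6 genes lay between -0.05 (Tgfbr2) and 0.14 (Smad7) and were not called. DESeq2 called the same 4 genes.

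The libraries numbered 5 weighed on these calls. Without WT replicate 5, Ltbp1 and Tgfb2 were called and the other 2 were not, with slopes of 0.12 for Tgfbr1 (edgeR adjusted p = 0.0678) and -0.06 for Nrros (adjusted p = 0.119). Without KO replicate 5, 3 were called, beside 2345 of 15863 genes (14.8%), and Nrros had a slope of -0.06 (edgeR adjusted p = 0.0522). Without both libraries, an alternative chosen after seeing the data, Ltbp1 and Tgfb2 were called, beside 1673 of 15770 genes (10.6%). Over all alternatives the edgeR or DESeq2 adjusted p of this slope ran from 1.96e-28 to 8.61e-06 for Ltbp1 and from 1.07e-11 to 0.00179 for Tgfb2. It ran from 0.000646 to 0.165 for Tgfbr1 and from 0.00739 to 0.247 for Nrros. With the astrocyte marker level as a covariate, the genotype change of Ltbp1 went from -0.85 to -0.06 (95% interval -0.48 to 0.36), and that of Tgfb2 from -0.33 to 0.11 (-0.25 to 0.47). Whether the reads of Ltbp1 and Tgfb2 came from astrocytes or from microglia was not tested.

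**Figure D4:**
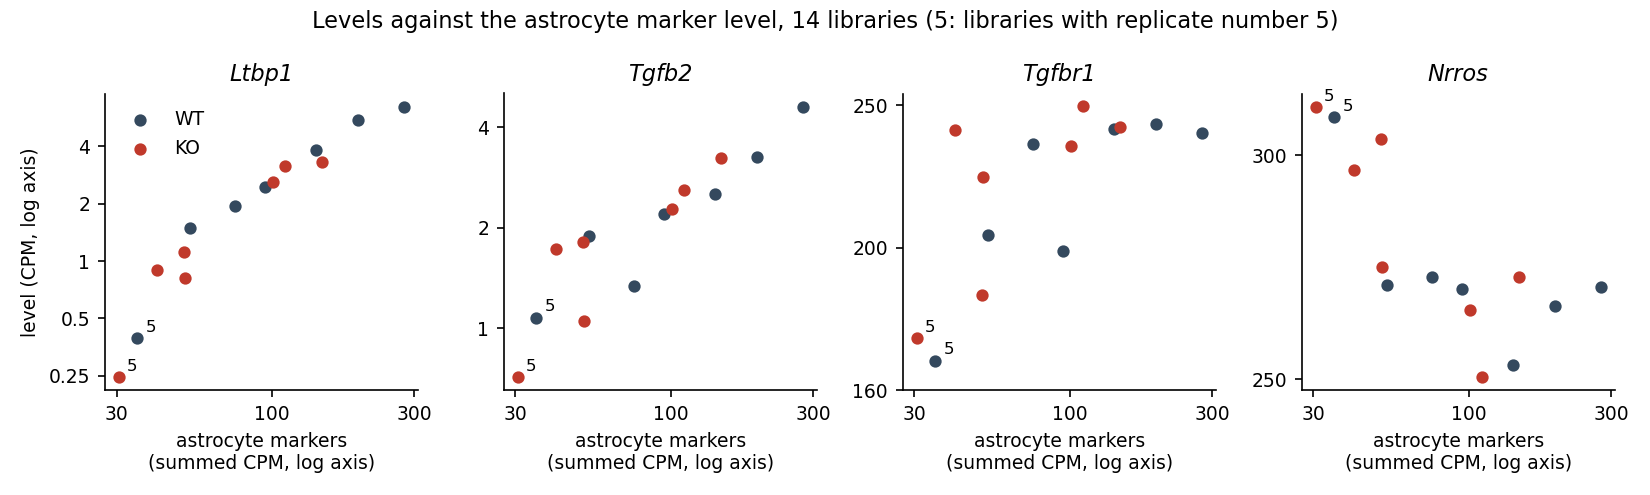
Level of Ltbp1, Tgfb2, Tgfbr1 and Nrros (CPM, log axes) against the summed CPM of 10 astrocyte markers (log axis) in WT (dark) and KO (red) libraries, with the libraries numbered 5 marked. Ltbp1 and Tgfb2 climb over the whole range from 30.6 to 276 CPM of markers, while in Tgfbr1 and Nrros the libraries numbered 5 lie at the end.

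Markers of fibroblasts and mural cells summed to 67.9 to 179.7 CPM in KO and 71.2 to 184 CPM in WT. Of that sum 86.2% was Anpep, an aminopeptidase that myeloid cells also express, and 5 of the 10 markers (Pdgfrb, Dcn, Lum, Kcnj8 and Col3a1) were under 1 CPM. With this level in the fit, Tgfbr2 was the 1 member called of 10 (slope -0.11 per SD, SE 0.0164, edgeR adjusted p = 0.00109), beside 1036 of 15692 genes (6.6%). With Anpep left out, an alternative chosen after seeing the data, the sum was 4.86 to 34.8 CPM and Tgfbr2 had a slope of -0.09 (edgeR adjusted p = 0.0199). The call of Tgfbr2 was lost, and its slope turned above 0, in both fits with the replicate number as a block (0.0278 in edgeR, adjusted p = 0.934, and 0.0257 in DESeq2, adjusted p = 0.973), where 0 and 38 of all genes were called. In the other alternatives its adjusted p ran from 2.04e-09 to 0.0199. The count over all genes was 610 without KO replicate 1, 624 without KO replicate 5 and 524 without WT replicate 5, and Tgfb1 was called too without KO replicate 1 or KO replicate 3. With Anpep left out, Ltbp1 and Tgfb2 were called too, with slopes of 1.05 (edgeR adjusted p = 0.000910) and 0.66 (adjusted p = 0.000186). The background of that fit was 2923 of 15692 genes (18.6%).

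The summed levels of the other lists overlapped between genotypes. The log2 difference, KO minus WT, was 0.07 for microglia (two-sided exact permutation test, p = 0.245), -0.30 for neurons (exact p = 0.189) and -0.09 for the oligodendrocyte lineage (exact p = 0.249). It was 0.22 for endothelial cells (exact p = 0.142), -0.18 for fibroblasts and mural cells (exact p = 0.497) and 0.05 for border macrophages (exact p = 0.789). These permutations take no account of replicate numbers. Within same-numbered pairs, looked at after seeing the data, endothelial and microglia sums were higher in KO in 7 of 7 pairs. Exact sign flips gave p = 0.0156 for each, and 0.0547 after Benjamini-Hochberg adjustment over 7 lists. Border macrophage markers summed to 447 to 876 CPM, of which 72.0% was Mrc1, followed by Ms4a7 at a mean of 138 CPM, Pf4 at 20.01 CPM and F13a1 at 10.7 CPM, while Lyve1, Cd163 and Cbr2 were under 1 CPM.

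Each of the 10 genes was then set beside the genes whose level followed it most closely over the 14 libraries, by Pearson's r of log2 CPM after the mean of each genotype was subtracted, among 12641 genes. Ltbp1 was nearest to Vcam1 (r = 0.997), an adhesion molecule, Cdh2 (0.994), the neural cadherin, and Timp3 (0.993), an inhibitor of metalloproteinases. Tgfb2 was nearest to Msantd3 (0.990), Cttn (0.984), which encodes the actin-binding cortactin, and Cnn3 (0.978), a calponin. Tgfb2 and Ltbp1 had r = 0.932 with each other. These values describe 14 points that share their library composition.

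The abundant genes had other companions. Tgfb1 was nearest to Hspa9 (r = 0.965), a mitochondrial chaperone, Ifrd1 (0.957) and Eif1 (0.952), a translation initiation factor. Nrros was nearest to Ppp2r5c (0.956), Parp11 (0.956) and Tap1 (0.951), a peptide transporter of antigen processing. Tgfbr1 was nearest to Edem1 (0.960), Apbb2 (0.944) and Dtx4 (0.944), and Tgfbr2 to Ulk2 (0.973), an autophagy kinase, Agpat3 (0.960) and Ppfia4 (0.958). Smad3 was nearest to the receptor gene Tlr2 (0.955), the kinase gene Mapkapk2 (0.954) and Vasp (0.943). Smad7 was nearest to Zfpm1 (0.945), Chd7 (0.928) and Skil (0.927), which encodes a repressor of SMADs. Smad2 and Smad4 had weaker companions, with Arid1b (0.880), Ppp1r12a (0.864) and Mdm2 (0.853) for Smad2 and Noc2l (0.896), Bmi1 (0.884) and Ptprc (0.881) for Smad4.

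A further 104 genes around the pathway were described by list, of which 95 passed the filter. Between genotypes edgeR called 0 of them, and 3 had an unadjusted p under 0.05, with DESeq2 giving 0 and 5. The background is again 0.0191% of all genes tested. With the astrocyte marker level in the fit, 29 of the 95 (30.5%) were called, 24 rising and 5 falling with the markers, beside 17.7% of all genes. Without both libraries numbered 5, 16 of 96 (16.7%) were called, beside 10.6% of all genes.

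Of 13 genes listed as other ligands of the superfamily, 6 were tested, and 1 of these, Bmp1, encodes a procollagen protease despite its name. Inha, Inhba, Inhbb, Bmp4, Bmp6, Mstn and Nodal did not pass the filter, with at most 27 reads in any library. Of the 6, 3 had changes above 0, and the median was -0.06, or 0.0002 over the 5 without Bmp1. Gdf15, a stress-induced ligand, had the highest level per length, with 33.2 ± 25.5 CPM in KO and 31.7 ± 10.1 CPM in WT (SD, n = 7 per genotype, as for all list genes). Bmp2, a bone morphogenetic protein, had 10.1 ± 2.93 CPM in KO and 8.57 ± 3.53 CPM in WT (log2 fold change 0.23, SE 0.251). Bmp1 had 7.02 ± 2.27 and 9.89 ± 4.22 CPM (-0.49, SE 0.271), and Bmp7 had 0.385 ± 0.223 and 0.587 ± 0.378 CPM (-0.61, SE 0.465).

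Of 17 other genes of latency and activation, 16 were tested, and only Itgb6 did not pass the filter. Their median was -0.04, with 6 changes above 0. The integrin subunit genes Itgb1 and Itgb5 were the highest per length. Itgb1 had 629 ± 35.5 CPM in KO and 656 ± 30.7 CPM in WT (-0.06, SE 0.0398), and Itgb5 had 564 ± 42.9 and 539 ± 63.8 CPM (0.07, SE 0.0720). Tgm2, a transglutaminase that crosslinks matrix, had 3.47 ± 0.987 and 4.73 ± 1.503 CPM (-0.45, SE 0.221), and Ltbp4 had 1.01 ± 0.246 and 1.29 ± 0.348 CPM (-0.35, SE 0.196). In this list 9 genes rose with the astrocyte markers and 0 fell, beside 1683 that rose and 1101 that fell of 15690 genes. Among them, and chosen after its values were seen, was Itgb8, whose integrin releases active TGF-beta, at 0.370 to 5.72 CPM with a slope of 1.14 (SE 0.0983, edgeR adjusted p = 1.06e-06).

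Of 11 other receptors, 10 were tested, with a median of 0.03 and 6 changes above 0, and Acvr1c did not pass the filter. Acvr1b, an activin receptor, had 58.1 ± 2.67 CPM in KO and 56.2 ± 2.62 CPM in WT (0.05, SE 0.0356), and Eng, the coreceptor endoglin, had 51.4 ± 4.09 and 52.4 ± 4.89 CPM (-0.03, SE 0.0639). Bmpr1a, a receptor for bone morphogenetic proteins, had 50.4 ± 4.00 and 54.8 ± 6.74 CPM (-0.12, SE 0.0729), Bmpr1b 0.321 ± 0.209 and 0.566 ± 0.473 CPM (-0.81, SE 0.516), and the coreceptor Tgfbr3 1.10 ± 0.510 and 1.45 ± 0.374 CPM (-0.39, SE 0.254). Bmpr1a and Bmpr1b were the 2 receptors of this list that rose with the astrocyte markers, beside 1683 of 15690 genes that rose over all.

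The 4 other SMADs had a median of 0.0087, and 2 of them had changes above 0. Smad1 and Smad5, which carry the signal of bone morphogenetic proteins, had 46.6 ± 3.73 CPM in KO and 45.5 ± 4.06 CPM in WT (0.03, SE 0.0613) and 41.7 ± 1.45 and 42.2 ± 1.79 CPM (-0.02, SE 0.0314). Smad6, an inhibitor like Smad7, had 18.5 ± 3.29 and 17.0 ± 1.93 CPM (0.12, SE 0.106).

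All 20 regulators of receptors and SMADs were tested, with a median of 0.02 and 11 changes above 0, and 2 of them had an unadjusted p under 0.05. Crebbp, a coactivator that acetylates histones, had 91.6 ± 5.16 CPM in KO and 85.0 ± 3.26 CPM in WT (0.11, SE 0.0367, edgeR adjusted p = 0.943). Strap, which binds the receptor with SMAD7, had 101 ± 2.23 and 105 ± 2.64 CPM (-0.06, SE 0.0220, edgeR adjusted p = 0.943). The related coactivator Ep300 had 223 ± 13.8 and 211 ± 13.4 CPM (0.08, SE 0.0473). The highest per length were Dab2, an endocytic adaptor, with 1462 ± 186 and 1506 ± 136 CPM (-0.04, SE 0.0793), and Fkbp1a, which binds TGFBR1, with 153 ± 7.68 and 154 ± 5.48 CPM (-0.01, SE 0.0335).

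Of 14 genes listed as general targets of TGF-beta, all were tested, 7 had changes above 0, and the median was 0.0009. Col1a1, a collagen chain, had 2.66 ± 1.74 CPM in KO and 4.08 ± 3.06 CPM in WT (-0.62, SE 0.527). Tsc22d1 had 37.2 ± 5.54 and 41.3 ± 7.18 CPM (-0.15, SE 0.113). Both were among the 5 genes of the list that rose with the astrocyte markers, beside 1683 of 15690 genes that rose over all. The highest per length were Cdkn1a, a cell cycle inhibitor, with 485 ± 106 and 483 ± 47.6 CPM (0.01, SE 0.119), and Junb, an AP-1 subunit, with 266 ± 121 and 265 ± 127 CPM (0.0046, SE 0.301).

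Microglial genes that depend on TGF-beta were tested in both directions. Of 14 that the signal keeps up, 10 had changes above 0, beside 7983 of 15700 over all genes tested. The median was 0.04, and 0 were called. Csf1r had 2817 ± 375 CPM in KO and 2537 ± 264 CPM in WT (0.15, SE 0.0855), Mertk, a receptor for apoptotic cells, 251 ± 20.5 and 233 ± 21.9 CPM (0.11, SE 0.0627), and Siglech, a sialic acid lectin, 4.64 ± 0.866 and 3.88 ± 1.16 CPM (0.26, SE 0.186). Of the 14, 2 rose with the astrocyte markers, beside 1683 of 15690 genes that rose over all. They were Sparc (slope 0.56, SE 0.0351, edgeR adjusted p = 4.54e-08) and Olfml3 (slope 0.52, SE 0.0884, edgeR adjusted p = 0.000686).

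Of 11 genes that the signal holds down in microglia, 9 had changes above 0, beside 7983 of 15700 over all genes tested. The median was 0.10, and 0 were called. The list of genes kept up leaned the same way, with 10 of 14 above 0. Cd74, the invariant chain of class II antigen presentation, had 37.2 ± 8.92 CPM in KO and 29.0 ± 5.03 CPM in WT, with an unadjusted p of 0.0288 from edgeR (0.36, SE 0.149, adjusted p = 0.943). Clec7a, a receptor for fungal glucans, had 638 ± 90.7 and 568 ± 64.1 CPM (0.17, SE 0.0920), and Spp1, which encodes osteopontin, 1518 ± 463 and 1274 ± 417 CPM (0.25, SE 0.214). Apoe was the highest per length, with 11420 ± 1455 and 10660 ± 1382 CPM (0.10, SE 0.0931). Lpl, a lipase, had 6008 ± 375 and 6325 ± 173 CPM (-0.07, SE 0.0408). Cybb, an NADPH oxidase subunit, and Cd74 fell with the astrocyte markers, beside 1101 of 15690 genes that fell over all.

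**Figure D5:**
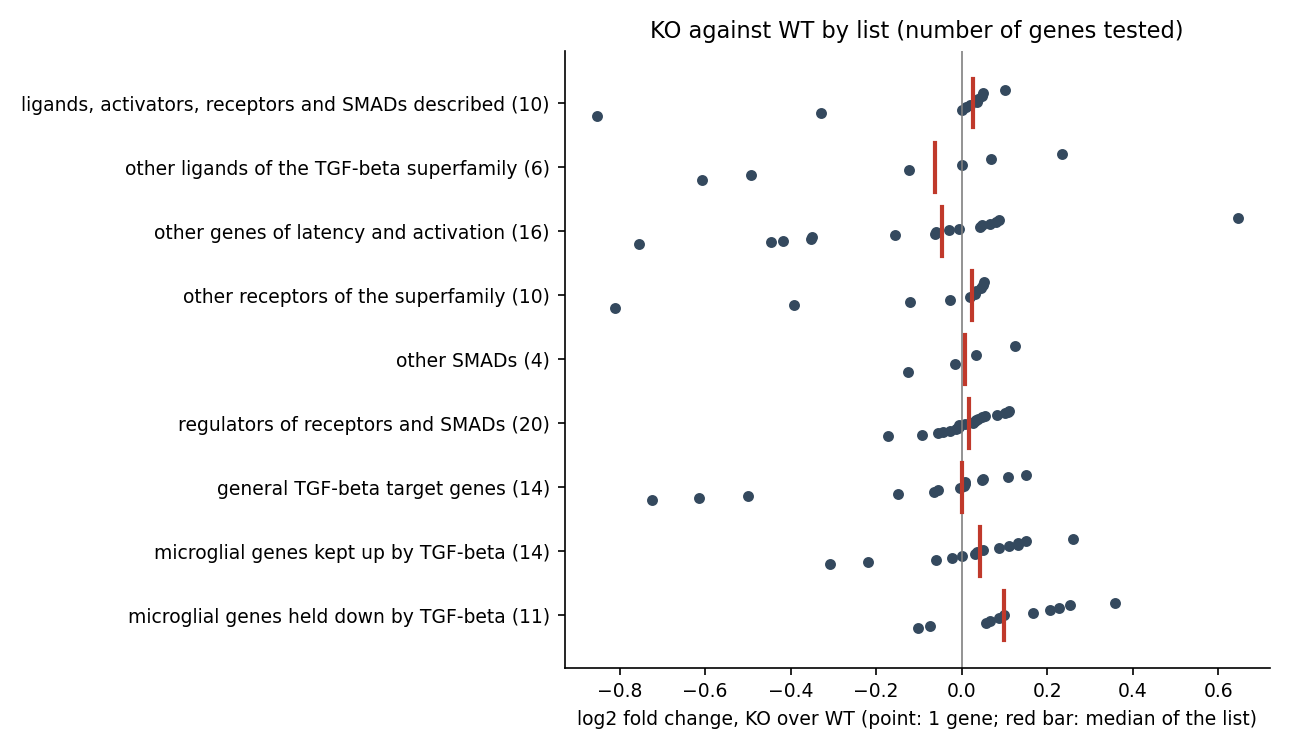
Log2 fold change, KO over WT (horizontal axis), of each tested gene (points) in the list of the 10 genes and in 8 further lists (rows, with the number tested; the other ligands include the protease gene Bmp1), with the median of each list as a red bar. The medians lie between -0.06 and 0.10, and the 3 points farthest to the left (Ltbp1, Bmpr1b and Itgb8) are genes with at most 6.44 CPM in any library.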

How the data were processed

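RNA of 14 cultures of primary microglia, 7 KO and 7 WT, was sequenced by the study as poly(A) libraries with paired reads. The authors trimmed and mapped the reads to GRCm38 and counted them per Ensembl gene, and they deposited raw counts without normalization, 1 column per library. Their processing notes name Trimmomatic 0.36, STAR 2.5.2b, Subread 1.5.2 with featureCounts, and DESeq2. The strand setting is not given in the sources used here, so reads of overlapping antisense genes cannot be told apart. Depth was 38875344 to 48070236 counts per library, and genotypes came from the sample titles.

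The 10 genes and all lists were chosen with earlier results of these data known. Symbols, positions and exon lengths (union of exons) came from GENCODE M21 on GRCm38, to which 49056 of 49315 genes were matched. The filterByExpr filter, with a count of 10 and a total of 15 as minimum values, chose the genes, TMM scaled the libraries, and tests were made with edgeR 4.0.16 in R 4.3.3, two-sided, with Benjamini-Hochberg adjustment over all genes tested and 0.05 as the threshold. Comparison fits used DESeq2 1.42.0. CPM were taken with TMM, and log2 CPM with a prior count of 1. Marker levels are the log2 sum of CPM of a list, in SD units, beside genotype in the fit, with the list's own genes left out of the counts of calls. Summed levels were compared by two-sided exact permutation over 3432 splits. The p-values measure the spread between libraries, each from its own pool of pups, isolation and culture. In that spread the pool, the culture, the cell composition and any batch cannot be told apart. The fit was tested on simulated data.

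Named genes were the 10 genes and Timp2, and from each other list the called genes, the 3 with the smallest p and the 2 highest per length, of which 2 genes are not reported here. For likeness, the 3 nearest genes with a mean of at least 1 CPM were named. Alternatives were DESeq2's and upper-quartile size factors, no filter, DESeq2, the replicate block, the astrocyte level as a covariate and each library left out. The study's own DESeq2 test held a batch term. Batches are not given in the labels and were not fitted, so the counts of called genes here come from another model.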

Additional observations from a re-analysis of the deposited data

Results flagged for a closer look

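Each of the 10 genes was checked for libraries far from the others of their genotype, which made 20 groups of 7. Dixon's test at its 95% critical value marked 2 of them, and chance marks about 1 in 20 such groups. For Tgfb1, WT replicate 1 was the highest at 381 CPM (381.0), with the next WT library at 363 CPM and a gap of 0.574 of the range on the log2 scale. For Nrros, WT replicate 5 was the highest at 309 CPM (309.4), with the next WT library at 272 CPM and a gap of 0.647 of the range. This library was also the lowest of the WT libraries in astrocyte markers, with 35.2 CPM, and its part in the Nrros level was not tested beyond the fits without it.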

How the results depend on the processing

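In no alternative was any of the 10 genes called between KO and WT. Over 23 alternatives, 202 of 230 changes kept their sign, and those that turned belonged to changes near 0 or to Tgfb2. Tgfb2 turned to 0.11 with the astrocyte level as a covariate and to 0.064 with the replicate block and that covariate (added after seeing the data), Nrros to -0.0004 with the covariate. Smad2 turned to -0.0070 with the covariate, to -0.0040 with upper-quartile factors and to -0.0325 with block and covariate, where Smad3 was at -0.0333 and Smad4 at -0.0403. Smad4 was at -0.0202 with the covariate, -0.0015 with DESeq2's size factors and in DESeq2, -0.0122 with upper-quartile factors, -0.0039 without the filter and -0.0010 in DESeq2 with the block. With each library left out, changes ran from -0.0357 to 0.0697 for Tgfbr1, -0.0153 to 0.0234 for Smad2, -0.0305 to 0.0787 for Smad3 and -0.0186 to 0.014 for Smad4, and the border macrophage difference from -0.0239 to 0.146.

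Over all genes, 14 were called between genotypes in DESeq2, against 3 in edgeR. For the astrocyte level, leaving out 1 library gave 2 to 4 of the 10 genes and 1644 to 3058 of all genes, and leaving out both libraries numbered 5 gave 2 and 1673, with 16 of the other pathway genes. For the fibroblast and mural level, leaving out 1 library gave 1 to 2 members and 524 to 1129 genes. Both upper-quartile factors and DESeq2 gave 2 members, DESeq2 gave 1653 genes, the level without Anpep 3 members and 2923 genes, and leaving out both libraries numbered 5 gave 339 genes.

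Replicate numbers paired the libraries only in part. Same-numbered KO and WT libraries correlated at -0.20 to 0.74 in their deviations from the genotype means, over 0.1 in 3 of 7 pairs. Of 14 libraries, 3 correlated best with their own number. The summed endothelial markers went with the number in both genotypes, at 34.9 to 47.3 CPM for numbers 1 to 4 and 52.6 to 65.0 CPM for 5 to 7. Whether same-numbered libraries shared a preparation was not tested. With the replicate block, 3 genes were called between genotypes (27 in DESeq2, 12 with block and covariate), and 0 of the 10 genes. Of the 95 other pathway genes tested, 0 were called in these fits. An unadjusted p under 0.05 was more frequent there, in 12 of the 95 beside 921 of 15700 genes in edgeR. It was found in 19 beside 1217 with block and covariate, and in 12 beside 583 in DESeq2, where 1 of the 10 genes had it too. The lists were chosen with earlier results of these data known, so these counts are a description and not a test of the lists. For the astrocyte level the block gave 7 of the 10 genes beside 22.8% of all genes, with Smad2, Smad3, Smad4 and Tgfb1 called in addition and Tgfbr1 not called, and DESeq2 with the block gave 5 beside 15.3%, with Smad3 in addition. For the fibroblast and mural level it gave 0 of the 10 and 0 of all genes (0 and 38 in DESeq2), with slopes for Tgfbr2 of 0.0278 in edgeR and 0.0257 in DESeq2. Within same-numbered pairs, an alternative added after seeing the data, the summed endothelial markers (log2 difference 0.2186) and microglia markers (0.0667) were higher in KO in 7 of 7 pairs. Each had an exact two-sided p = 0.0156, the smallest that 128 sign flips can give, with 0.0547 after Benjamini-Hochberg adjustment over 7 lists. The endothelial difference rested on the sum, of which 55.5% was Flt1, and was 0.002 with the mean of log2 CPM. At this depth Ltbp1 and Tgfb2 rested on 10 to 269 reads a library, and the widths of their intervals limit what could be seen.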

Other observations

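Tgfbr2 levels lay close together in KO and WT libraries with the same replicate number, although over all genes only 3 of 7 such pairs correlated above 0.1. Same-numbered libraries differed by 1.87% to 7.29% in Tgfbr2, with a median of 3.32%, while the 14 libraries spread by 32.4%. The pairs, KO first, were 674 and 662 CPM for number 1, 738 and 724 for 2, 760.0 and 736 for 3, 745 and 705 for 4, 876 and 825 for 5, 849.7 and 792 for 6, and 809.6 and 826 for 7. Numbers 1 to 4 thus lay at 662 to 760.0 CPM and 5 to 7 at 792 to 876 CPM. The summed endothelial markers divided the libraries at the same numbers. Tgfb1, by contrast, differed by up to 13.6% between same-numbered libraries, with a spread of 15.6% over the 14, and Smad3 by up to 22.7%, with a spread of 56.6%. This pattern was noticed in the data and was not tested.

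Low Smad7 accompanied low Tgfbr1 in both libraries numbered 5, at 37.0 CPM for Smad7 and 174 CPM for Tgfbr1 in KO and at 38.7 and 168 CPM in WT. Over 14 libraries, after the genotype means were subtracted, Smad7 and Tgfbr1 had Pearson's r = 0.756, as a description of libraries that share their composition.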
